A study of Mus musculus with 2 samples.

Results

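The TME of mouse melanomas that had become resistant to targeted therapy held a population of macrophages high in marker transcripts of osteoclasts, the bone-resorbing cells of the skeleton. The population, named Ctsk_Macro in the deposited cell table, comprised 280 cells out of 7815 in the series. All 280 came from the library of tumour resistant to targeted therapy (RTT), where they made up 5.79% of 4840 cells (95% exact binomial interval 5.14 to 6.48%) and 6.98% of 4009 macrophages. The library of tumour naive to targeted therapy (NTT) contributed 0 of 2975 cells. With that count set to 3, the limit on the share is 0.101%. This limit and the RTT interval cover counting error only. Members were taken from the population name alone, and were compared with the 3729 other RTT macrophages, named TAM_C1q (2001 cells), TAM_cycling (947), TAM_Spp1 (719), TAM_H2Ab1 (36) and Macro (26).

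Tumours of both groups were grown from YUMM3.3, a mouse melanoma line that carries Braf V600E and lacks Cdkn2a, injected under the skin of C57BL/6 mice. NTT cells had not been exposed to inhibitors, and RTT cells had been selected for resistance to a BRAF inhibitor and were kept in dabrafenib before injection. The record gives collection on day 12 for both, while the study's methods give another day. Live CD45+ cells were sorted from digested tumours and profiled with a droplet kit that tags the 3' end of each transcript with a unique molecular identifier (UMI), so that each UMI stands for 1 captured molecule. There was 1 library per group, and the number of tumours behind each library is not given in the sources used here. The difference between NTT and RTT therefore had no replicate check, and resistance cannot be told apart from the tumours, the mice, the sort or the library.

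Osteoclasts arise by fusion of cells of the monocyte and macrophage lineage. M-CSF acting on its receptor Csf1r keeps the precursors alive, RANK ligand acting on RANK (Tnfrsf11a) together with costimulation through adaptor-coupled receptors such as Oscar induces the transcription factor Nfatc1, and Nfatc1 with Mitf, PU.1 and AP-1 switches on the resorption genes. The mature cell attaches through the integrin Itgav and Itgb3, seals off a patch of matrix, acidifies it with a vacuolar proton pump (V-ATPase) and degrades collagen with cathepsin K and other proteases. Osteoclast-like cells are also known from tumours outside bone. Here the words osteoclast and macrophage refer to transcripts; resorption and the number of nuclei per cell were not measured.

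Ctsk_Macro cells carried a median of 13736.5 UMIs (range 1462 to 42452) and 3510.5 detected genes, against 12029 UMIs in TAM_cycling, 8596 in TAM_C1q and 5351 in TAM_Spp1. Thinned to 2000 UMIs each, they showed a median of 1073.5 genes, within the range of the other macrophages (1018 to 1146). The population thus supplied 9.10% of all RTT UMIs, 4068012 in total. The 2 libraries shared 7 barcodes, 1 of them in Ctsk_Macro.

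All levels below are CPM, the UMIs summed over the cells of a population and scaled to a total of 1000000. A log2 ratio sets the CPM of Ctsk_Macro over that of the other RTT macrophages, and its bracketed interval is an exact 95% interval for counting error only. Because the population was defined by clustering these same cells, every ratio is a description, and no p-value is given.

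The markers describe the population and cannot test its name, because it was clustered and named from these same data. Of 11 osteoclast markers, 10 had at least 200 UMIs over the RTT macrophages, and each of those was at least 16-fold above the other macrophages (log2 ratios 4.21 to 9.83). That minimum includes the UMIs of Ctsk_Macro, so a gene such as Itgb3, with 210 UMIs there, passed it through this population alone. Ctsk, the collagen-cleaving protease of resorption, stood at 16143 CPM against 17.7 CPM, a 912-fold difference (log2 9.83 [9.72 to 9.95]). Acp5, the tartrate-resistant acid phosphatase used to stain osteoclasts, was the most abundant transcript of the population at 23710 CPM, against 131 CPM, a 181-fold difference. Mmp9, a gelatinase that osteoclasts secrete, reached 7547 CPM against 11.8 CPM (log2 9.32 [9.18 to 9.47]). Together these 3 transcripts made up 4.74% of the population's UMIs. The eleventh marker, the calcitonin receptor Calcr, was nearly silent, with 12 UMIs in 8 cells and 0 in the other macrophages. Wider lists of osteoclast genes were less one-sided. Of 131 measured, 43 were at least 2-fold higher (32.8%, against 8.77% of all genes with that minimum). Another 26 were lower (19.8%, against 15.5%) and 62 were within 2-fold (median log2 0.11).

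Ctsk was low in every other RTT population, between 0 and 30.4 CPM. Its level was 17.5 CPM in TAM_C1q, 17.9 CPM in TAM_Spp1 and in TAM_cycling, 17.6 CPM in cDC2 dendritic cells and 13.6 CPM in NK_cells. On 16 UMIs or fewer, Monocyte_1 had 30.4, DC3 28.3, TAM_H2Ab1 22.2, Infl_Mono 10.2 and Neutro 4.67 CPM. After thinning to 2000 UMIs, 90.6% of Ctsk_Macro cells held a Ctsk UMI, against 3.21% of TAM_C1q, 4.27% of TAM_Spp1 and 5.20% of cDC2 cells, whose unthinned depth was a median of 5861 UMIs. Unthinned, the shares were 91.8%, 14.0%, 9.74% and 10.4%, and 2 Ctsk_Macro, 6 TAM_C1q, 16 TAM_Spp1 and 9 cDC2 cells had too few UMIs for thinning. TAM_H2Ab1 had 11.8% after thinning, on 4 of 34 cells, and TAM_cycling had 3.48% (18.6% unthinned). Thus TAM_C1q, TAM_Spp1 and TAM_cycling were at or below cDC2 when thinned and TAM_H2Ab1 was not, while unthinned TAM_C1q, TAM_cycling and TAM_H2Ab1 were above cDC2. The source of the few Ctsk UMIs outside Ctsk_Macro was not tested. In the NTT library, which had no such population, 4 Ctsk UMIs were counted in all cells (0.204 CPM). Only 1 of the 4560 other RTT cells reached 1000 CPM of Ctsk, against 247 of the 280 members, and 0 NTT cells did.

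Acp5 behaved differently from Ctsk outside the population. There were 1.47 Acp5 UMIs for each Ctsk UMI in Ctsk_Macro, but 8.26 in TAM_C1q, 7.49 in TAM_Spp1, 5.78 in TAM_cycling and 2.60 in cDC2. In the NTT library, Acp5 stood at 1358 CPM in TAM_H2Ab1 and 1257 CPM in TAM_cycling, with 0 Ctsk UMIs in both. Low Acp5 was therefore present in macrophages without Ctsk, at levels below the 23710 CPM of Ctsk_Macro.

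**Figure D1:**
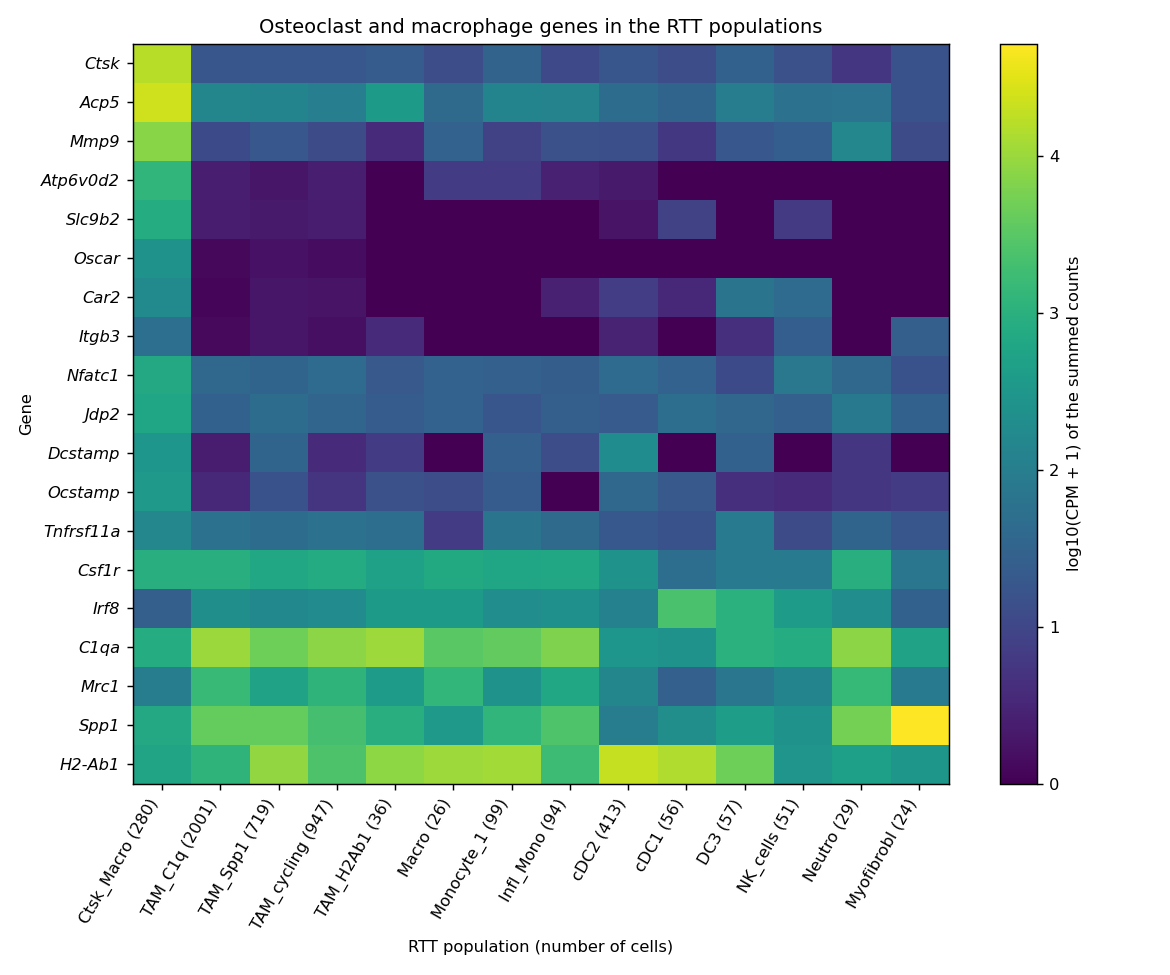
Levels of 19 osteoclast and macrophage genes (rows) in 14 RTT populations (columns, with cell numbers), as log10(CPM + 1) of the summed counts. Ctsk_Macro is the highest of the populations drawn in the rows from Ctsk to Ocstamp. Its lead is small for Dcstamp (302 CPM, against 194 in cDC2), Itgb3 (51.6 CPM, against 25.7 in Myofibrobl) and Car2 (169 CPM, against 63.6 in DC3). It shares Csf1r with the other macrophages, and is low in Irf8 and C1qa, where it holds 26.1 and 833 CPM.

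Over 8653 genes with at least 200 UMIs in the RTT macrophages, 759 (8.77%) were at least 2-fold higher in Ctsk_Macro and 1343 (15.5%) at least 2-fold lower, with a median log2 ratio of -0.07 over all genes. For 557 and 915 of them the whole counting interval lay beyond 2-fold. Against TAM_C1q alone, 775 of 7542 genes (10.3%) were higher and 1093 (14.5%) lower. Against TAM_Spp1, the figures were 689 of 5206 (13.2%) and 673 (12.9%), and against TAM_cycling 622 of 7224 (8.61%) and 1278 (17.7%). Differences of 16-fold or more were found for 61 genes in the upward and 48 in the downward direction. The shares of 8.77% higher and 15.5% lower over all genes are the background for every list count below.

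The 12 largest ratios belonged to Ctsk, Atp6v0d2, Rufy4, Oscar, Mmp9, Slc9b2, Akap6, Cd200, Car2, Scin, Myo1d and Cyp2s1. Atp6v0d2, the osteoclast form of the d subunit of the proton pump, reached 1250 CPM against 1.44 CPM (log2 9.76 [9.36 to 10.19]). Slc9b2, a sodium-proton exchanger of osteoclasts, had 811 CPM against 1.30 CPM, and Oscar, a costimulatory collagen receptor, had 250 CPM against 0.368 CPM. Car2, the carbonic anhydrase that supplies protons, had 169 CPM against 0.481 CPM. Scin, an actin-severing protein, Cd200, a ligand that restrains myeloid cells, and Akap6, a scaffold for protein kinase A, were at 65.1, 91.2 and 69.8 CPM, each at 0.255 CPM or less in the other macrophages. Among the genes with at least 200 UMIs over the RTT macrophages, Ctsk_Macro held at least 90% of the RTT library's UMIs for 17, namely Acp5, Akap6, Atp6v0d2, Bdh2, Car2, Coq8a, Ctsk, Cyp2s1, Ephx2, Mmp9, Myo1d, Oscar, Rufy4, Slc9b2, St8sia6, Steap4 and Tmem204. Over all genes the population held 9.10% of the RTT UMIs, with 5.79% of the cells. A gene could pass the minimum through Ctsk_Macro alone, as St8sia6 did with 204 UMIs there.

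**Figure D2:**
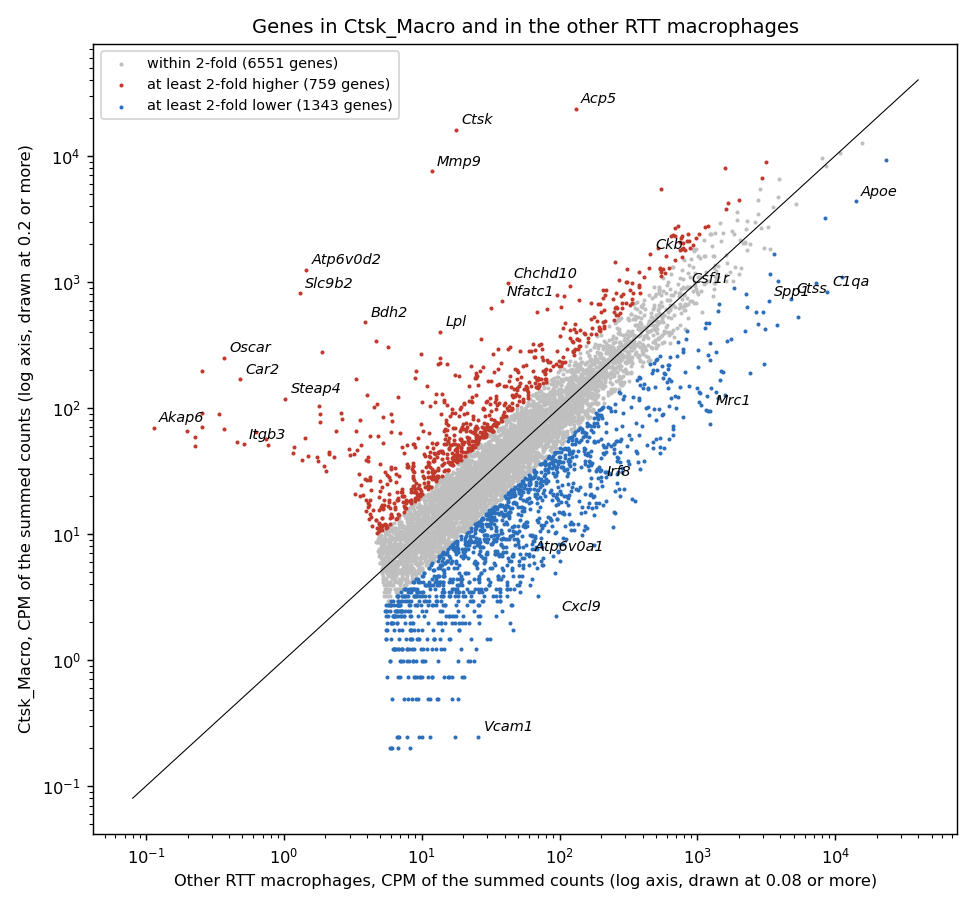
Each point is 1 of 8653 genes, at its CPM in the other RTT macrophages (horizontal, log axis) and in Ctsk_Macro (vertical, log axis), with the line of equality. Ctsk, Acp5 and Mmp9 lie at the top, far above the line, while Vcam1 and Cxcl9 lie at the bottom with 1 and 9 UMIs in the population.

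Bdh2, a dehydrogenase that takes part in making a mammalian siderophore, lies directly before Slc9b2 on chromosome 3. The annotation (GRCm38) places Bdh2 at chr3:135281221-135304426 and Slc9b2 at chr3:135307700-135345387, both on the plus strand with 3273 bases between them. Bdh2 stood at 479 CPM against 3.91 CPM (log2 6.94 [6.69 to 7.20]), and was thus another of the 17 genes named above.

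The windows around the transcription starts of the marker genes are shown because these genes were high in the same cells and because the factors known to act on them were measured in the same cells. RefSeq (build GRCm38.p6) gave windows of 300 bases, 250 before and 50 from the start, for 6 of 12 genes asked for: Ctsk, Acp5, Oscar, Slc9b2, Rufy4 and Bdh2. Atp6v0d2, Mmp9, Dcstamp, Ocstamp, Itgb3 and Car2 were the other 6. Capitals mark matches on either strand to the NFAT core TGGAAA, the MITF-type E-box CATGTG, the AP-1 site TGAGTCA and the PU.1 core GAGGAA, which occur in 21.4%, 14.2%, 5.20% and 28.3% of 32851 such windows. The first line is Ctsk at chr3:95498960-95499259 (plus strand), the second is the last of the 3 annotated starts of Acp5 at chr9:22130549-22130848 (minus), the third is Oscar at chr7:3616108-3616407 (minus), the fourth is Rufy4 at chr1:74125291-74125590 (plus) and the fifth is Slc9b2 at chr3:135307450-135307749 (plus), each written 5' to 3' along its gene.
Ctsk: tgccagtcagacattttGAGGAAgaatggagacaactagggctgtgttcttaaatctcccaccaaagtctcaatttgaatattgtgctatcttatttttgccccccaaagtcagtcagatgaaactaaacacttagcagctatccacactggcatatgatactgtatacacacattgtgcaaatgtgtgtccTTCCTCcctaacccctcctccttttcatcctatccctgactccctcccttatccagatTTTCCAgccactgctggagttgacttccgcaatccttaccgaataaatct
Acp5: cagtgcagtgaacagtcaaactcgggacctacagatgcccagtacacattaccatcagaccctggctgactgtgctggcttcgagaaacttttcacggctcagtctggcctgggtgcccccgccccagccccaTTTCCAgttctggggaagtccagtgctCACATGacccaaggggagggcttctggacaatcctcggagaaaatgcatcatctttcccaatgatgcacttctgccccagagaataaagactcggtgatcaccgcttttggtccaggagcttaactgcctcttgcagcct
Oscar: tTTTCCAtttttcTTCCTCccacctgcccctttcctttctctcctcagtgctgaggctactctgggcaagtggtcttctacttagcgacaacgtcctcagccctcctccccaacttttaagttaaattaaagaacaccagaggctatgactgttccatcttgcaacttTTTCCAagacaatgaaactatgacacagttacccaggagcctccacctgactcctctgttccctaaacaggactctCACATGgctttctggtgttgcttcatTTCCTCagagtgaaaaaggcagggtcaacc
Rufy4: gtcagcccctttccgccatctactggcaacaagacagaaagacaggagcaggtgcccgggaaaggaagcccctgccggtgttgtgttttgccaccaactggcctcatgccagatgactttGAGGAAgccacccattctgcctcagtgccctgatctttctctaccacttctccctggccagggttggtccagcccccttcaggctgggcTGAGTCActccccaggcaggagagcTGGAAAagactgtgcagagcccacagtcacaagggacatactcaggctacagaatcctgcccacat
Slc9b2: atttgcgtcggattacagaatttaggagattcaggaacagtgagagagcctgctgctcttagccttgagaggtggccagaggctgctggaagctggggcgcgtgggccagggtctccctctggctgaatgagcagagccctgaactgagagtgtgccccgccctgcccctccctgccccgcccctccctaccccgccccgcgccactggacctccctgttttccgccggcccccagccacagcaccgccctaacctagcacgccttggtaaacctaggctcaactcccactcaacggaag

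Counted from 0 at the start base, the Ctsk window held 1 NFAT match over the first 6 bases of the transcript and 2 PU.1 matches, from -233 and -58. Acp5 held an NFAT match from -117 and a MITF-type match from -90 at the start shown, and none of the motifs at its other 2 starts. Oscar held 2 NFAT, 2 PU.1 and 1 MITF-type match, the last one ending at -1. Rufy4 held an AP-1 match from -41, an NFAT match from -16 and a PU.1 match from -130. Bdh2 held 1 NFAT match, from -169, and Slc9b2 had no match to these letters. No 2 matches overlapped in these windows. Motifs this short occur in many promoters, as the shares above show, and a match is not a bound site.

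Of the receptors and adaptors that lead to osteoclast formation, 28 of 32 had enough UMIs, of which 7 were at least 2-fold higher and 8 at least 2-fold lower (median log2 0.03). Tnfrsf11a, which encodes RANK, stood at 149 CPM, against 59.2 in TAM_C1q, 45.4 in TAM_Spp1 and 57.7 in TAM_cycling (log2 1.40 [1.27 to 1.53] over all others). Csf1r, the M-CSF receptor, was at 885 CPM against 822 CPM, within 2-fold (log2 0.11 [0.06 to 0.16]). RANK ligand itself (Tnfsf11) had 0 UMIs in every RTT macrophage population, and was found in DC3 and NK_cells at 10.6 and 32.5 CPM, on 3 and 12 UMIs. Among the 2 signalling adaptors, Tyrobp was at 6506 CPM (log2 0.72) and Fcer1g at 3216 CPM (log2 -1.39). Siglec15, a sialic acid receptor that pairs with Tyrobp in osteoclasts, had 101 UMIs in 75 cells, against 1 UMI in the other macrophages. Nrp2 was higher (log2 2.63) and Nrp1 lower (log2 -3.28), a contrast between paralogues that bind semaphorins and VEGF.

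Among 30 transcription factors, 8 were higher (26.7%, against 8.77% of all genes) and 6 lower (20.0%, against 15.5%), with a median log2 of -0.23. Nfatc1, the master factor of osteoclast formation, was at 701 CPM against 37.9 CPM (log2 4.21). Jdp2, an AP-1 partner needed for osteoclasts, was at 625 CPM (log2 4.29), Ppargc1b, the coactivator of mitochondrial biogenesis in osteoclasts, at 108 CPM (log2 4.52), Prdm1, a repressor of the genes that block osteoclast formation, at 181 CPM (log2 3.38), Mitf at 123 CPM (log2 2.40) and Fosl2 at 282 CPM (log2 2.24). Fos (log2 0.27) and Spi1, which encodes PU.1 (log2 0.36), were within 2-fold. The lowest members were Bhlhe41 (log2 -4.41) and Pparg (log2 -3.73).

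Of 14 measured factors that hold back osteoclast formation, 0 were higher, 7 lower and 7 within 2-fold (median log2 -1.08). The median was within 2-fold under 2 alternatives, at -0.87 at the weakest. Irf8, a monocyte factor that blocks Nfatc1, was at 26.1 CPM against 201 CPM (log2 -2.95 [-3.24 to -2.67]). Bcl6, a direct target of Prdm1, was at 6.15 CPM against 17.6 CPM (log2 -1.52 [-2.16 to -0.94]). Id1 and Lilra5 were lower still (log2 -3.56 and -4.80), on 3 and 1 UMIs. Tsc22d3 (log2 0.70) and Tnfaip3 (log2 0.58) were the highest of the list.

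Of 25 measured genes of resorption and acid secretion, 13 were higher and 5 lower (median log2 1.65). Without the minimum count the median was 0.77, below 2-fold. Beside the markers, Snx10, Slc37a2 and Slc4a2, a sorting protein, a sugar-phosphate transporter and the bicarbonate exchanger of the basal membrane, had log2 ratios of 3.03, 3.08 and 2.80. Plekhm1 (log2 2.00), which is needed for the ruffled border, and Clcn7, a chloride-proton exchanger (51.1 CPM, log2 1.65), were higher too, while Ostm1, the partner of Clcn7, was within 2-fold (log2 0.48). Mmp14, the membrane collagenase, was within 2-fold as well (log2 0.77). Lamp1 and Lamp2, the main glycoproteins of the lysosomal membrane, were lower (log2 -2.36 and -2.33).

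V-ATPase subunits were mostly higher, and alternative forms of the same subunit differed in direction. Of 18 measured subunits, 14 were higher and 1 lower (median log2 1.62), and their summed level was 24724 CPM against 7961 CPM. Atp6v0d2 was 1250 CPM while its ubiquitous counterpart Atp6v0d1 was 178 CPM against 245 CPM (log2 -0.46). Tcirg1, the a3 subunit that places the pump in the ruffled border, was 413 CPM against 119 CPM (log2 1.80 [1.72 to 1.88]), whereas Atp6v0a1 was 6.64 CPM against 60.3 CPM (log2 -3.18 [-3.79 to -2.64]) and Atp6v0a2 was within 2-fold (log2 -0.24). Of the remaining subunits, Atp6v1b2 had the largest ratio (log2 2.94).

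Cathepsins differed in direction too. While Ctsk was higher, the endolysosomal proteases of antigen-processing macrophages were lower: Ctss at 735 CPM against 4768 CPM (log2 -2.70), Ctsl at 337 against 1653 (log2 -2.30), Ctsb at 1020 against 3826 (log2 -1.91), Ctsc at 455 against 3772 (log2 -3.05) and legumain (Lgmn) at 461 against 2741 (log2 -2.57). Ctsd and Ctsa were within 2-fold (log2 -0.46 and 0.08). Over 40 lysosomal hydrolases and membrane proteins, 7 were higher (17.5%, against 8.77% of all genes) and 9 lower (22.5%, against 15.5%). Their median log2 was -0.01, with Arsb, which removes sulphate from dermatan sulphate, and Glb1, the beta-galactosidase, at the top (log2 4.76 and 2.45).

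**Figure D3:**
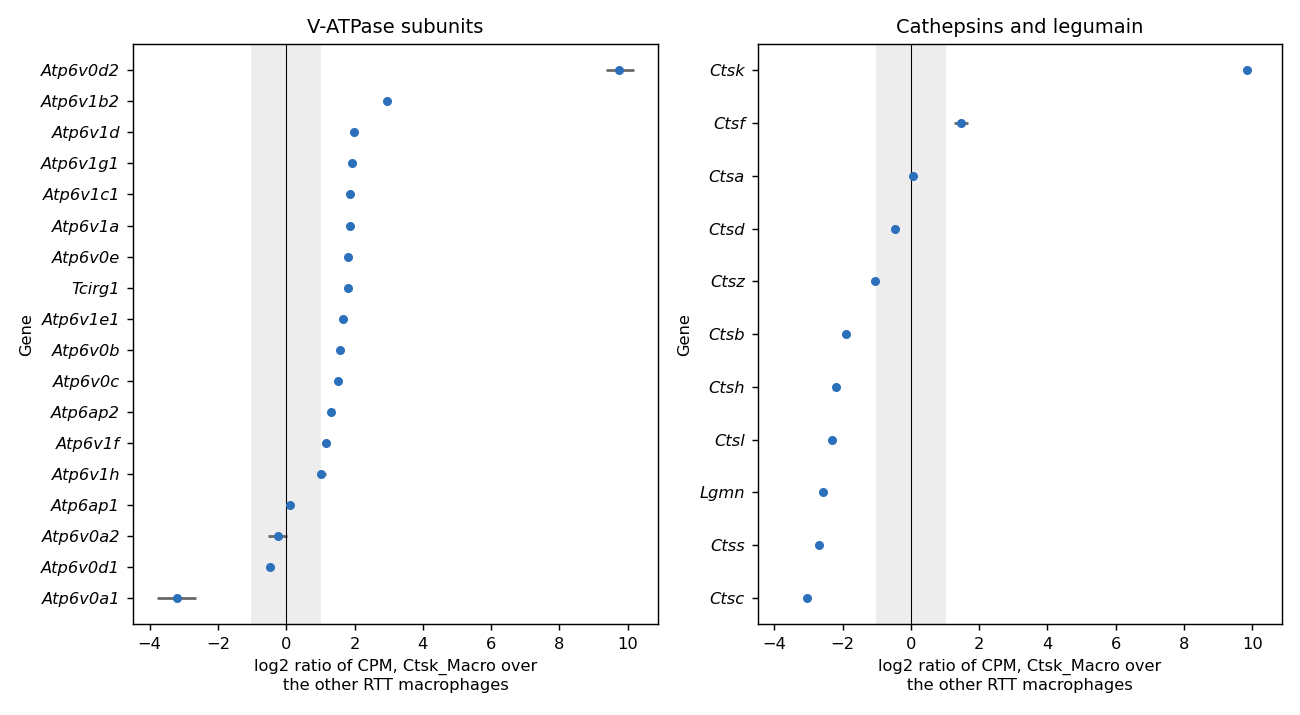
log2 ratios of CPM, Ctsk_Macro over the other RTT macrophages, for 18 V-ATPase subunits and 10 cathepsins and legumain; bars are 95% counting intervals and the grey band marks 2-fold. Atp6v0d2 and Ctsk lie near 10, while Atp6v0a1 and Ctsc lie near -3.

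Fusion genes were divided, with 10 of 21 higher and 6 lower (median log2 0.11). Dcstamp and Ocstamp, the transmembrane proteins needed for osteoclasts to fuse, were at 302 and 337 CPM against 5.66 and 4.64 CPM (log2 5.74 [5.52 to 5.96] and 6.18 [5.95 to 6.42]). Dcstamp was also found in cDC2 (194 CPM) and TAM_Spp1 (31.7 CPM), and after thinning 39.9% of Ctsk_Macro and 25.2% of cDC2 cells held a UMI (78.9% and 45.0% unthinned). Cd109 and Myo10, the latter a motor of filopodia, had log2 ratios of 5.59 and 5.67, and the tetraspanin Cd9 was higher (log2 2.01) where its relative Cd81 was lower (log2 -3.14). Cdh1, an adhesion molecule described in fusing precursors, was among the 12 lowest genes, with 2 UMIs.

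Of 35 genes of the sealing zone and podosomes, 11 were higher and 1 lower (median log2 0.16). Itgb3 was at 51.6 CPM against 0.510 CPM (log2 6.66 [5.97 to 7.44]) and its partner Itgav at 238 CPM against 81.1 CPM (log2 1.56). Cttn, Src, Actn1 and Dock5, which organise podosome actin, had log2 ratios of 4.14, 3.44, 2.92 and 2.42. Lpxn was the single gene on the list at least 2-fold lower (log2 -1.88, and -0.99 under 1 alternative), and general actin regulators such as Rhoa, Rac1 and Cdc42 were within 2-fold (log2 -0.33, -0.72 and -0.51). Pooled over all 5 osteoclast lists, 43 of 131 genes were higher and 26 lower, with a median log2 of 0.11, against 8.77% and 15.5% over all genes.

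Mitochondrial genes were higher across most lists, by small amounts. Of 38 genes of respiratory chain complexes II to V, 33 were higher and 0 lower (median log2 1.24), of 37 of complex I 19 were higher and 0 lower (median 1.03), and of 17 of the tricarboxylic acid cycle 11 were higher and 0 lower (median 1.36). Over TAM_C1q, TAM_Spp1 and TAM_cycling the medians were 1.23, 1.27 and 1.23 for complexes II to V. For complex I they were 0.94, 1.17 and 1.02, the first below 2-fold. Cyc1 and Mdh2 had log2 ratios of 2.05 and 2.04. Among 33 genes of mitochondrial biogenesis and structure, 16 were higher and 0 lower (median log2 0.91, and 0.90, 1.06 and 0.90 over the same populations), led by Chchd10, a protein of the intermembrane space, at 975 CPM against 42.3 CPM (log2 4.53 [4.44 to 4.62]). Ckb, the creatine kinase that buffers ATP, was at 1655 CPM against 455 CPM (log2 1.86).

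Of 14 glycolysis genes, 1 was higher (7.14%, near the 8.77% of all genes) and 5 were lower (35.7%, against 15.5%). Their median log2 was -0.28, and -0.32, -0.89 and 0.09 over TAM_C1q, TAM_Spp1 and TAM_cycling. The lactate transporter Slc16a3 (log2 -3.58) and the glucose transporter Slc2a1 (log2 -2.06) were lowest, and Hk1 was the gene that was higher (log2 1.72). Of 10 iron genes, 3 were higher and 2 lower. Tfrc, the transferrin receptor, and Steap4, a ferrireductase, were at 222 and 118 CPM (log2 3.87 and 6.85), while the phagosomal iron exporter Slc11a1 and haem oxygenase Hmox1 were lower (log2 -2.83 and -2.22). In the lipid list, with 2 of 16 higher and 8 lower, Lpl, the lipoprotein lipase, was at 402 CPM against 13.6 CPM (log2 4.89), and Apoe was at 4352 CPM against 14103 CPM (log2 -1.70).

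**Figure D4:**
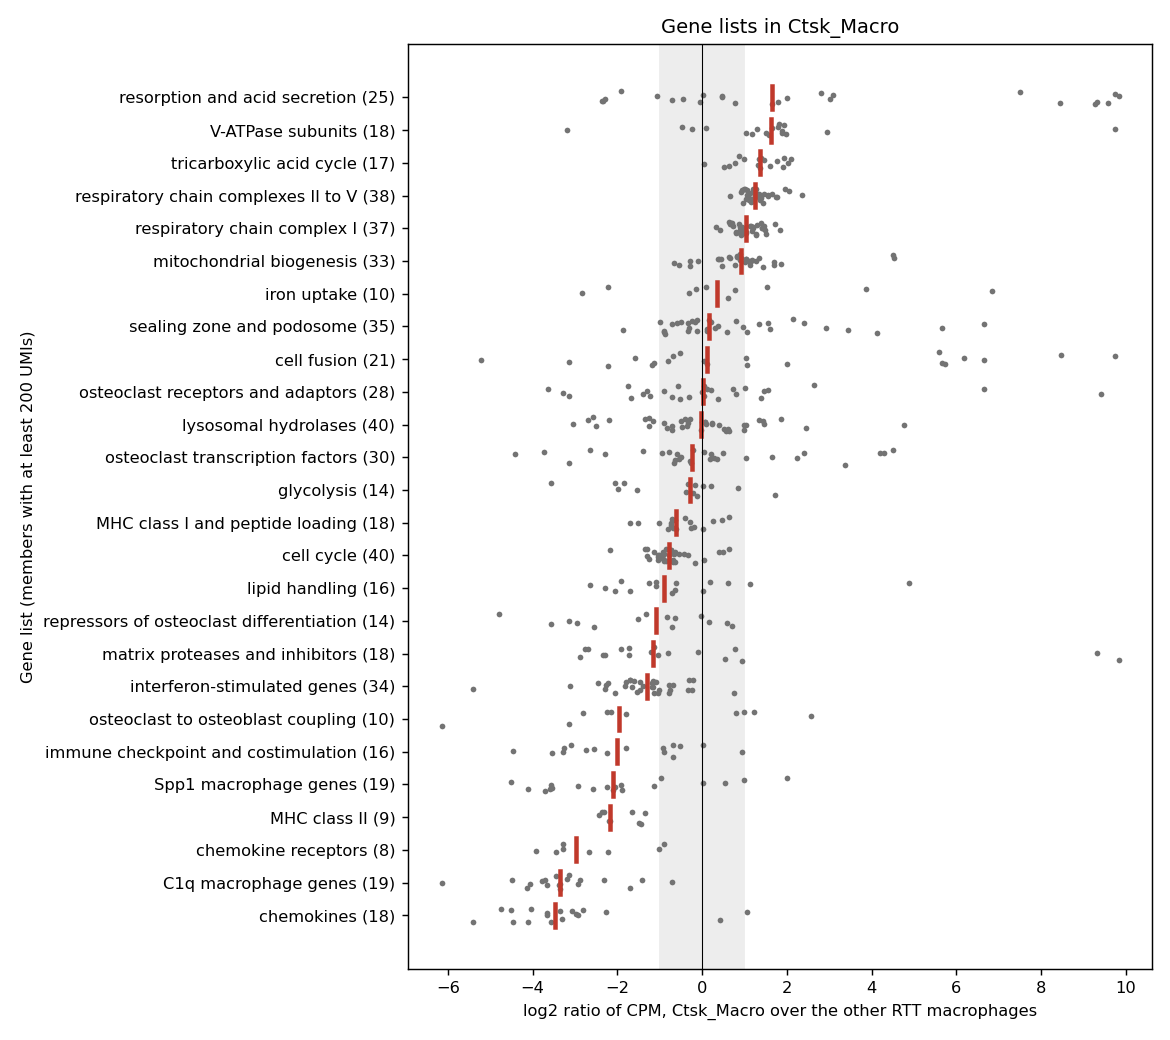
Points are the members with at least 200 UMIs of 26 gene lists, at their log2 ratio of CPM, Ctsk_Macro over the other RTT macrophages; red bars are list medians and the grey band marks 2-fold. Resorption, V-ATPase and respiratory genes lie to the right (medians 1.65, 1.62 and 1.24), chemokines and C1q macrophage genes to the left (-3.47 and -3.36).

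Genes of C1q macrophages were low in Ctsk_Macro. Of 19 genes measured, 18 were lower and 0 higher (median log2 -3.36), among them C1qa at 833 CPM against 8669 CPM (log2 -3.38), the mannose receptor Mrc1 at 94.6 against 1243 CPM (log2 -3.72) and Igf1, with 1 UMI against 615. The median was -1.64 over TAM_Spp1 alone. The single exception was Trem2, a lipid receptor coupled to Tyrobp, at 519 CPM against 851 CPM (log2 -0.71). The pan-macrophage gene Adgre1, encoding F4/80, was at 53.8 CPM against 480 CPM (log2 -3.16), whereas Cd68 was within 2-fold at 1544 CPM (log2 0.57). Of 19 genes of Spp1 macrophages, 1 was higher, Cd9, and 14 were lower (median log2 -2.10). Spp1 itself, which encodes osteopontin, a matrix protein that osteoclasts in bone also make, was at 698 CPM against 3977 CPM in TAM_C1q, 3982 CPM in TAM_Spp1 and 2110 CPM in TAM_cycling.

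Genes that recruit and instruct lymphocytes and monocytes were low in Ctsk_Macro. Of 18 chemokines, 16 were lower (median log2 -3.47), including Cxcl9 with 9 UMIs, 7 of them in 1 cell (log2 -5.40), Ccl2 (log2 -3.66), Ccl4 (log2 -3.58) and Ccl3 (log2 -3.30). Cxcl9 was at 2.21 CPM, against 6.88 in TAM_Spp1, 41.0 in TAM_C1q, 93.8 in TAM_cycling, 311 in Macro and 3696 in TAM_H2Ab1. Ccl9, known to be secreted by osteoclasts, was the single chemokine at least 2-fold higher, at 550 CPM against 264 CPM (log2 1.06 [0.99 to 1.12]), yet TAM_Spp1 held 396 CPM and the 26 Macro cells 1062 CPM of it. The ratio was below 2-fold under 3 alternatives, at a log2 of 0.81 at the lowest. Of 8 chemokine receptors, 7 were lower and 0 higher, with Ccr2 and C5ar1 both at log2 -3.29.

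All 9 measured genes of MHC class II presentation were lower (median log2 -2.18), with H2-Ab1 at 574 CPM against 2648 CPM (log2 -2.21). This depended on the population compared: the median of the list was -0.73 over TAM_C1q, -2.07 over TAM_cycling and -3.72 over TAM_Spp1. Class I genes differed less, with 3 of 18 lower (16.7%, near the 15.5% of all genes) and 0 higher (median log2 -0.62). Of 34 interferon-stimulated genes, 25 were lower and 0 higher (median log2 -1.29). Of 16 checkpoint and costimulatory genes, 9 were lower and 0 higher (median log2 -2.01), among them Tnfsf9 and Arg1 (log2 -4.46 and -3.55), while Cd274, which encodes PD-L1, was at 6.15 CPM against 6.09 CPM (log2 0.01 [-0.65 to 0.61]).

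The 12 lowest ratios belonged to Vcam1, Igf1, Nlrp1b, Cxcl9, Inpp1, Tgm1, Cdh1, Saa3, Grap2, Lilra5, Stat4 and Traf3ip3, each on 9 or fewer UMIs in Ctsk_Macro. Vcam1, an adhesion molecule for lymphocytes, had 1 UMI, against 904 in the other macrophages (log2 -6.70 [-12.01 to -4.22]), and Nlrp1b, an inflammasome sensor, 1 against 403. Of 18 matrix proteases and inhibitors, Ctsk and Mmp9 were the 2 higher genes and 11 were lower, with Mmp12 and Timp1 at the bottom (log2 -2.88 and -2.77).

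Signals through which osteoclasts are known to act on osteoblasts were mixed. Of 10 genes with enough UMIs, Sema4d, which restrains osteoblasts, and the growth factor Pdgfa were higher (log2 2.58 and 1.22), and 6 were lower (median log2 -1.97), including Igf1 and Hgf. The other 8 genes found in the matrix had fewer than 200 UMIs. Without the minimum the median of the list was 0.79.

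Markers of other cell types were checked over whole lists, as summed CPM in Ctsk_Macro and in the other RTT macrophages. Monocyte markers (6 of 7 in the matrix) summed to 136 against 1437 CPM, dendritic cell markers to 8.36 against 16.7, fibroblast markers to 3.93 against 7.45, endothelial markers to 5.90 against 21.6, B and plasma cell markers to 0.246 against 1.39, and mast cell markers to 0.492 against 1.10. NK and T cell markers summed to 22.6 against 0.935 CPM, with 5 of 7 genes at 0 in Ctsk_Macro and nearly all UMIs from Trac. Cd3d, Cd3e, Ncr1, Flt3, Col1a1, Pecam1 and Retnlg had 0 UMIs. Melanoma and osteoblast lists rested on 1 gene each, Pmel with 3 UMIs (0.737 against 0.368 CPM) and Runx2 with 6, against 212 in the other macrophages. Neutrophil markers summed to 104 against 48.8 CPM, with 80 of the 210 S100a8 UMIs and 81 of the 198 S100a9 UMIs in a single cell each, and the RTT neutrophils held 8352 CPM of S100a8.

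Ctsk_Macro was not uniform. Ctsk per cell ranged from 0 to 704 UMIs (median 240.5), or from 0 to 43504 CPM (median 17159). Clustering the 280 cells anew gave 4 subgroups, numbered by falling Ctsk, which describe a range and are no cell types: at lower and higher resolution there were 4 and 7 groups with other borders. Subgroup 1 (107 cells) had a median Ctsk of 23748 CPM per cell, subgroup 2 (88 cells) 16877 CPM, subgroup 3 (43 cells) 11387 CPM and subgroup 4 (42 cells) 368 CPM.

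Subgroup 1 was led by Bgn, St8sia6, S100a8, Oscar, Itgb3, Steap4, Mmp9, Pheta1, Ephx2 and Arsb. S100a8, a neutrophil gene, was at 123 CPM in it, with 80 of the population's 210 UMIs in 1 cell. Summed over its cells, Mmp9 was at 15161 CPM, against 4459, 4862 and 334 CPM in subgroups 2, 3 and 4. Oscar stood at 550, 99.7, 158 and 6.31 CPM and Itgb3 at 113, 27.3, 23.7 and 0 CPM in the same order, so that subgroup 1 was highest in all of these. Atp6v0d2 (1566 and 1522 CPM) and Dcstamp (407 and 358 CPM) were alike in subgroups 1 and 2, and subgroup 2 was led by S100a4 (8367 CPM) and Lpl (612 CPM).

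Summed over its cells, subgroup 3 carried C1q macrophage genes beside the osteoclast genes, with C1qa at 3830 CPM, Mrc1 at 433 CPM and Fcrls at 1084 CPM, against 49.7, 10.1 and 17.3 CPM in subgroup 1, while Ctsk was at 10861 CPM. All 43 cells held a C1qa UMI and 37 held a Ctsk UMI. When all RTT cells were clustered again, 34 of the 43 fell in the cluster that held 268 of the 280 members. Of the 12 members outside that cluster, 8 fell in a cluster with 780 TAM_C1q cells. The median depth of subgroup 3, 18005 UMIs, was the highest of the 4 subgroups, against 12692 in subgroup 1. Doublets were not removed here: the doublet caller marked 0 of the 4840 RTT cells at its own threshold. Whether pairs of a Ctsk_Macro cell and a TAM in 1 droplet account for subgroup 3 was not tested. Without it, an alternative chosen after seeing the data, the counts of genes at least 2-fold higher and lower were 830 and 1429.

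Subgroup 4 was led by cell cycle genes, with Mki67 at 440 CPM and Top2a at 652 CPM against 0.720 and 6.48 CPM in subgroup 1. Of its cells, 76.2% held a UMI of either gene, against 9.35% of subgroup 1, 11.4% of subgroup 2 and 30.2% of subgroup 3. Thinned to 2000 UMIs, 11.2% of Ctsk_Macro cells (95% exact binomial interval 7.70 to 15.5%) held a UMI of Mki67 or Top2a, against 56.2% of TAM_cycling, 4.51% of TAM_C1q, 2.28% of TAM_Spp1 and 8.17% of cDC2, and the unthinned share was 23.2%. Of 40 cell cycle genes, 10 were lower than in the other macrophages pooled and 0 higher (median log2 -0.79), but the median was 2.17 over TAM_C1q and -2.11 over TAM_cycling.

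The osteoclast genes differed in how subgroup 4 compared with subgroup 1. Nfatc1 was at 484 CPM against 920 CPM in subgroup 1, Jdp2 at 666 against 594 CPM and Tnfrsf11a at 159 against 163 CPM. Csf1r was at 483 against 1043 CPM. Mmp9, Oscar, Itgb3 and Acp5 (4853 against 40413 CPM) were further apart. Of the 42 cells of subgroup 4, 19 had Ctsk at or above 1000 CPM. The 33 members below that level included 23 cells of subgroup 4, 8 of subgroup 3 and 2 of subgroup 2. Subgroup 4 and the low-Ctsk members thus overlap only in part, and 23 of the 33 low-Ctsk members had no Ctsk UMI. Nfatc1 was found in 27 of them and Jdp2 in 26, at 424 and 551 CPM, and Acp5 in 29, at 2508 CPM, while Mmp9 had 2 UMIs and Oscar and Itgb3 had 0. They were also higher than the other members in Top2a (635 against 64.2 CPM) and C1qa (1832 against 726 CPM). Their median depth was 11605 UMIs, against 14020 in the 247 cells at or above 1000 CPM. These are values of cells clustered on the same genes and are given without a test.

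**Figure D5:**
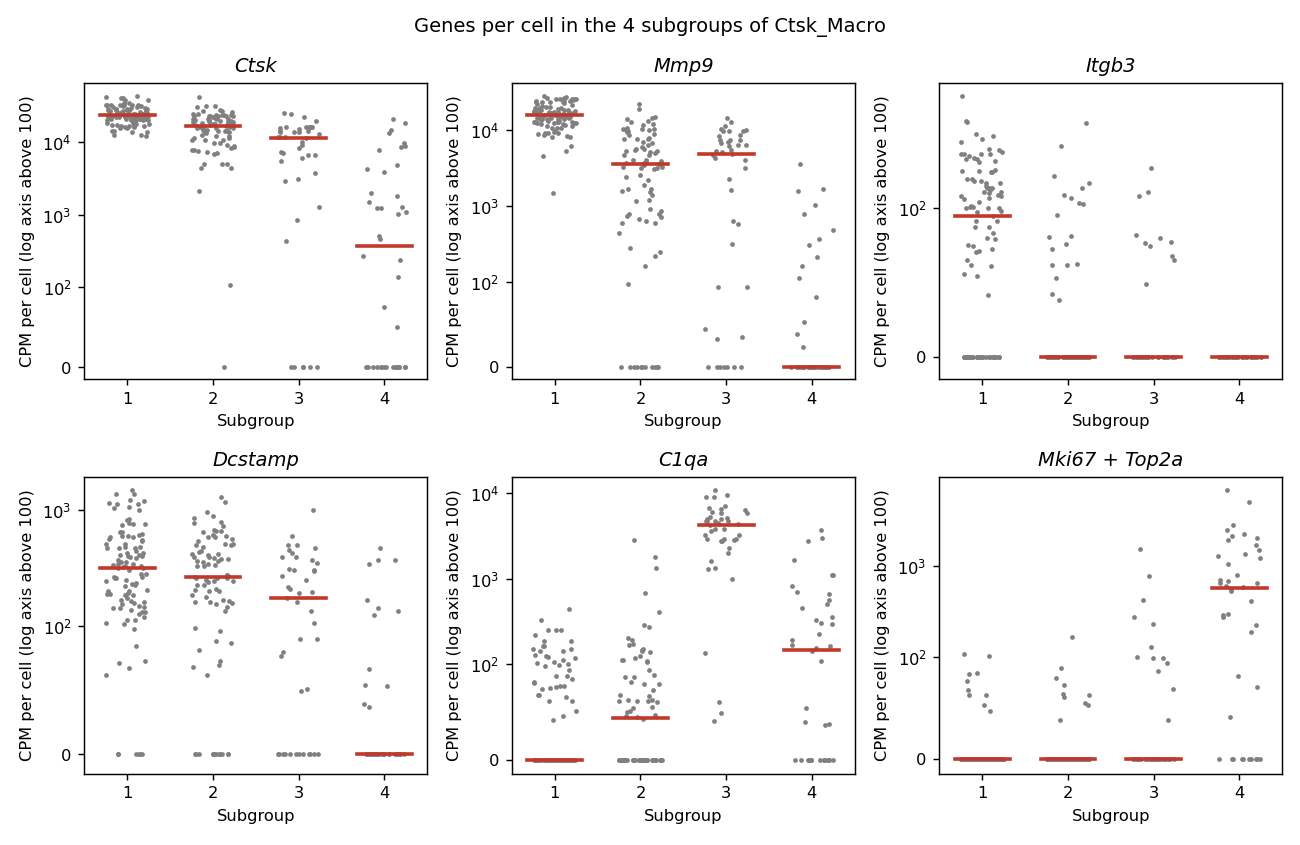
CPM per cell of 5 genes and of Mki67 with Top2a (vertical, linear below 100 and logarithmic above) in the 4 subgroups; each point is a cell and red bars are medians. The Ctsk median is 23748 CPM in subgroup 1 and 368 CPM in subgroup 4, C1qa is high in subgroup 3, and Mki67 with Top2a in subgroup 4.

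Over the 280 cells, the genes whose CPM ranked most like Ctsk were Acp5 (Spearman rho 0.83), Npc2 (0.77), Mmp9 (0.76), Hexa (0.75), Ctsa (0.65), Arsb (0.64), Cd68 (0.64) and Slc9b2 (0.63), out of 2838 genes compared. The median rho over all these genes was -0.05, and that of the total UMIs per cell was -0.10. Npc2, Hexa, Ctsa and Arsb, all lysosomal proteins, were within the lysosomal list whose median ratio was -0.01. Within subgroups 1 and 2 alone (195 cells), Acp5 stood at 0.67, Npc2 at 0.59, Hexa at 0.62 and Mmp9 at 0.53. At the other end were Lgals1 (-0.76), Arhgdib (-0.70) and Cfl1 (-0.67). The cells share 1 library, so these values describe this population and carry no p-value.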

How the data were processed

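Single-cell RNA-seq of live CD45+ cells from YUMM3.3 tumours was analysed, in 1 NTT and 1 RTT library. The authors deposited raw UMI counts per gene and cell with a table of total counts, detected genes, library and population name per cell. The study's methods and the submitters' processing notes name Cell Ranger 6.1.1 and mm10; cells and genes were filtered and populations were named from clusters of an integrated map before deposit, and ribosomal and mitochondrially encoded genes had been removed. The matrix held 12584 genes, and summed counts equalled the deposited totals in all 7815 cells (44712071 UMIs in RTT, 19634099 in NTT).

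Here, counts were summed per population and scaled to CPM. Ratios were described for genes with at least 200 UMIs over all RTT macrophages, with exact binomial intervals (95%, counting error only); a count of 0 was set to 3. Named genes were a fixed panel, the 12 highest and 12 lowest ratios, the 2 highest and 2 lowest of each list and the 8 genes most like Ctsk; other list members given in the text were chosen after their values were seen. The members and lists were chosen with earlier results of these data known. Clustering used scanpy 1.11.5 (subgroups from 1000 variable genes, 15 components and resolution 0.5), and the ratio was tested on simulated data. Genes that the lists name and the matrix lacks were not analysed here. With 1 library per group and populations defined on these genes, no test was made. Alternatives changed scaling, filters, depth, comparison group, population definition and doublet treatment.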

Additional observations from a re-analysis of the deposited data

How the results depend on the processing

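No paired analysis was possible because each group had 1 library and no result came from a test. Under 13 alternatives (10 planned, 3 chosen after seeing the data), the counts of genes at least 2-fold higher and lower stayed within 1.5 times of 759 and 1343, except that without a minimum count 1677 genes were higher. The share of the population among RTT cells became 5.12% when members were cells with Ctsk at 1000 CPM or more. The share of cells with a UMI of Mki67 or Top2a became 6.43% at 1000 UMIs per cell and 23.2% without thinning. Without the minimum count the median of the osteoclast to osteoblast coupling genes was reversed to 0.79. The causes of these changes were not tested. Of 113 named genes past 2-fold, 104 were past it under every alternative, as were 14 of 21 lists. Leaving the 20 most counted genes out of the totals shifted the median of all genes by 0.09. Scrublet marked 0 RTT cells, so leaving out marked cells changed nothing; without the 6% highest scores (268 RTT cells, 32 of them Ctsk_Macro), 815 genes were higher and 1410 lower. Without the cycling subgroup, Mki67 was at log2 -4.41 in place of -1.24. Depth limited the low genes: ratios on 1 to 3 UMIs, such as Vcam1, have intervals several log2 units wide.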

Other observations

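The genes given here were chosen after their values were seen. Trac, the constant region of the T cell receptor alpha chain, had 91 UMIs in 65 Ctsk_Macro cells (22.4 CPM), against 4 UMIs in the other RTT macrophages and 757 CPM in NK_cells. All 65 cells lacked Cd3e and Cd3d UMIs, and no cell held more than 4 Trac UMIs. Ccr3, the eotaxin receptor, had 156 UMIs in 81 cells (38.3 CPM), against 0.425 CPM in the other macrophages; it was below the minimum of 200 UMIs.

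S100a4, a calcium-binding protein, was at 5402 CPM in Ctsk_Macro, against 207 in TAM_C1q, 572 in TAM_cycling and 1817 in TAM_Spp1, and was also high in cDC2 (3593 CPM) and Myofibrobl (3604 CPM). Sdc1 (syndecan-1) was at 91.7 CPM, against 14.0 in TAM_Spp1 and 0.493 in TAM_C1q, but RTT Myofibrobl held 94.1 CPM and NTT TAM_Spp1 144 CPM. Ocstamp, although concentrated in Ctsk_Macro within the RTT library, was found without that population in the NTT library, at 263 CPM in Monocyte_1 and 150 CPM in Infl_Mono, where Dcstamp was at 0.554 and 0 CPM, and at 137 CPM in cDC2; RTT Monocyte_1 held 22.8 CPM of Ocstamp. With 1 library per group this difference has no replicate check.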
